A study of Mus musculus with 2 samples.

Results

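The 9 chemokine genes Ccl8, Ccl11, Ccl19, Ccl21a, Cxcl9, Cxcl10, Cxcl13, Cxcl14 and Cxcl12 were followed among the 31053 gene IDs counted in cells of mouse dermis. They were chosen by their UMI counts after imiquimod against no treatment in these same 2 libraries, as chemokines induced by imiquimod, so their levels and ratios are descriptions and carry no test. The description as induced did not hold for each of them. Ccl11 was lower after imiquimod in every way of counting tried, the level of Cxcl14 hung on 1 barcode, Cxcl12 was about level on total UMIs and higher with other scalings, and the direction of Ccl19 turned when the reads given to a near-identical gene copy were added to it. The cells came from the dermis of C57BL/6 mice of the genotype PdgfraDreER-tdTomato at an age of 8 weeks, either untreated (UT) or with psoriasis-like inflammation brought on by 7 days of imiquimod (IMQ), a Toll-like receptor agonist. In both groups live cells were sorted as CD45-negative and tdTomato-positive. In these mice a Dre recombinase under Pdgfra control, switched on by tamoxifen given to both groups before imiquimod, turns on tdTomato, so the sort takes any cell that has used Pdgfra, or descends from one that did, and the reporter transcript was not analysed here. Each group was 1 droplet library with unique molecular identifiers (UMIs), the number of mice behind it is not given in the sources used here, and no test between the groups was possible.

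Chemokines are small secreted proteins that steer leukocytes by binding G protein-coupled receptors. Some are made in response to inflammatory signals: Cxcl9 and Cxcl10 are classical interferon-induced ligands of CXCR3 that draw activated T cells, Ccl8 draws monocytes and T cells, and Ccl11 (eotaxin) draws eosinophils through CCR3. Others organise tissue at rest: Ccl19 and Ccl21a are ligands of CCR7 on dendritic cells and naive T cells, Cxcl13 draws B cells through CXCR5, Cxcl12 acts on CXCR4, and Cxcl14 is abundant in epithelium.

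The UT library held 1415 barcodes with 1524079 UMIs and the IMQ library 5047 barcodes with 2358303 UMIs. Barcodes were shallow, with a median of 694 UMIs in UT and 355 in IMQ. Keeping barcodes with 200 to 5000 detected genes and at most 5% mitochondrial UMIs, the quality limits of the study, left 1045 UT and 571 IMQ barcodes with medians of 741 and 659 UMIs. The study states more cells for each group than passed here, and for IMQ more than the matrix used here holds in all, so it may not be the matrix the study analysed. In IMQ 3621 barcodes fell under the gene minimum and 3343 over the mitochondrial maximum. The libraries shared 1 barcode sequence, and 0 within the limits. At least 3 UMIs from at least 2 of 7 fibroblast genes (Col1a1, Col1a2, Col3a1, Dcn, Lum, Pdgfra, Dpt) were seen in 93.5% of UT and 94.3% of IMQ barcodes, so fibroblast transcripts alone did not tell carriers of a chemokine apart from other barcodes. Ptprc, which encodes CD45, had 5 UMIs in UT and 0 in IMQ, yet 10 UT and 21 IMQ barcodes held at least 3 UMIs from at least 2 of 9 myeloid genes. Levels are given as CPM, UMIs scaled to a library total of 1000000. Over genes with at least 10 UMIs the median gene had a log2 ratio, IMQ over UT, of −1.04 over all deposited barcodes and −0.60 within the limits. The chemokine ratios are on total UMIs and would each lie higher by that much if read against the median gene.

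The 9 genes together gave 785 UT and 1182 IMQ UMIs. All 9 had at least 10 UMIs over both libraries, and 8 did within the limits, where Ccl21a had 7. Over all deposited barcodes 5 of the 9 had a log2 ratio whose 95% counting interval lay above 0 (Ccl8, Ccl19, Ccl21a, Cxcl9, Cxcl10), beside 2.41% of all genes with at least 10 UMIs. For Ccl11 and Cxcl14 the interval lay below 0, as it did for 58.6% of all genes, and for Cxcl13 and Cxcl12 it covered 0. Within the quality limits 5 of 9 again lay above 0 (Ccl8, Ccl19, Cxcl9, Cxcl10, Cxcl13), beside 4.11% of genes, and Ccl11 lay below 0, beside 28.1%. The genes were chosen for this contrast, so nothing is read from these counts. Scaling moved them: with TMM or median-of-ratios scaling 7 of 9 lay above 0 in either barcode set.

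**Figure D1:**
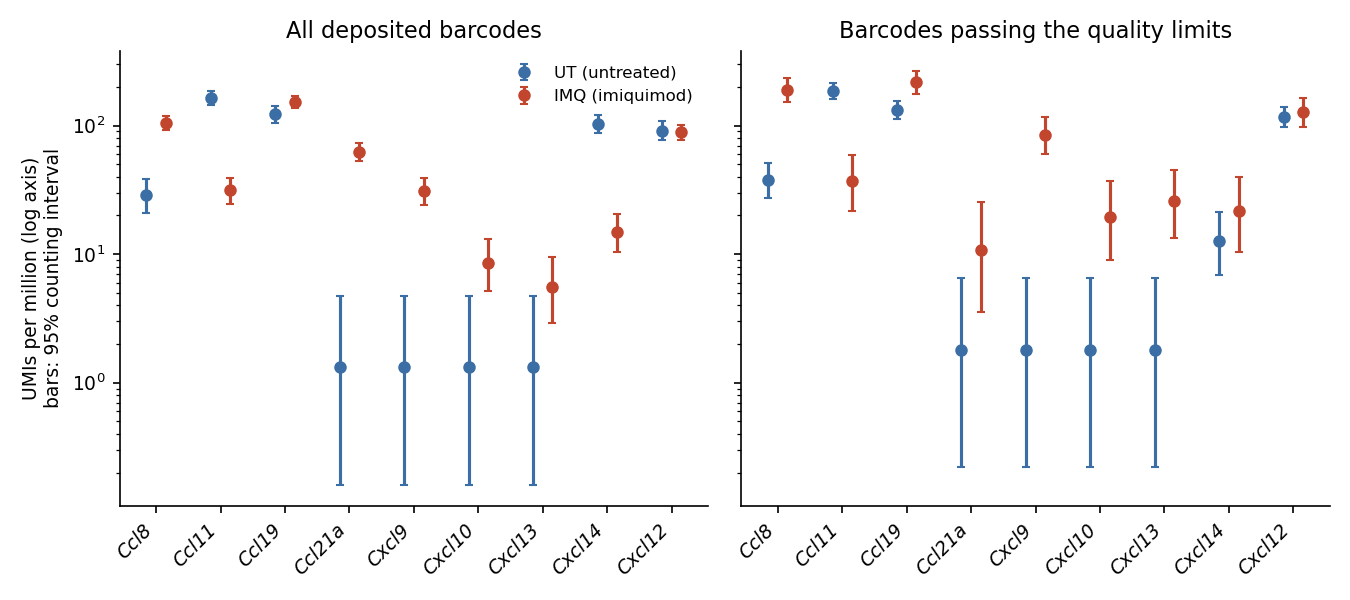
Level of each chemokine in UT and IMQ as CPM on a log axis, over all deposited barcodes (left) and within the quality limits (right). Points are 1 library each and bars are exact Poisson 95% intervals. Ccl11 lies higher in UT in both panels, while Cxcl9 rests on 2 UT against 73 IMQ UMIs over all barcodes.

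The interferon-induced pair Cxcl9 and Cxcl10 was near absent in UT and present in a few IMQ barcodes. Both genes lie on chromosome 5, minus strand, in the GRCm38 annotation, Cxcl9 at chr5:92321347-92328079 and Cxcl10 at chr5:92346638-92348889, with 18558 bases between them. Cxcl10 overlaps Art3 on the other strand. The 250 bases before each RefSeq start (GRCm38.p6, read on the minus strand 5′ to 3′) are shown because promoters of this pair are known for interferon and NF-κB response elements. Capitals mark matches, on either strand, to GAAA, any 2 bases and GAAA again (interferon-stimulated response element-like), or to GGGANTTCC (NF-κB-like), where N is any base.
Cxcl9, chr5:92328080-92328329: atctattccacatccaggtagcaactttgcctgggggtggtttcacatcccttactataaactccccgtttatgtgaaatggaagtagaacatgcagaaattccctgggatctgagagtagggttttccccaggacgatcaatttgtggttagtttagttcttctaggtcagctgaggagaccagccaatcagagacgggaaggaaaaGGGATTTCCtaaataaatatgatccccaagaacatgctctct
Cxcl10, chr5:92348890-92349139: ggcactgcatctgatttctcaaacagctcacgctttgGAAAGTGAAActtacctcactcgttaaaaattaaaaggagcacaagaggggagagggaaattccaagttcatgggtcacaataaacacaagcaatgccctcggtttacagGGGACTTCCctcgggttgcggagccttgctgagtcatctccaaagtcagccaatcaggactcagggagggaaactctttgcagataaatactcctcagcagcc
The Cxcl10 window held GAAAGTGAAA starting 213 bases and GGGACTTCC starting 103 bases before the start, and the Cxcl9 window held GGGATTTCC at 42 bases. The matches listed did not overlap each other. Of 32851 RefSeq promoter windows 2.98% held the first pattern and 1.43% the second. Of the 8 chemokines with a window, Ccl19 held GAAAGTGAAA and Cxcl14 held GAAACAGAAA and, for the interferon-gamma-activated pattern TTCNNNGAA seen in 7.02% of windows, TTCTGAGAA. Those for Ccl8, Ccl21a, Cxcl13 and Cxcl12 held none of the 3 patterns. The Ccl19 match starts 208 bases before its RefSeq start at chr4:42756365. In GENCODE that gene starts further upstream, at chr4:42756577, so the match lies inside it there. A match is a description of letters, and binding was not measured.

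Cxcl9 had 2 UMIs in 1 UT barcode and 73 UMIs in 18 IMQ barcodes, 1.31 against 31.0 CPM. The log2 ratio was 4.56 (95% counting interval 2.66 to 7.63), and 5.55 (3.60 to 8.64) within the limits, where 2 UT UMIs stood against 39 IMQ UMIs in 4 barcodes. The interval lay above 0 in every alternative tried in both barcode sets. Few barcodes carried the IMQ signal: 21, 13 and 9 UMIs sat in the top 3, which is 58.9% of the total. The barcode with 21 Cxcl9 UMIs also held 12 of Ccl19 and 10 of Ccl5, a T cell and monocyte attractant, with 9 fibroblast-list and 0 myeloid-list UMIs among 760. The barcode with 13 held 226 fibroblast-list UMIs of 2069, Dcn (93) and Col3a1 (40) among them, and that with 9 held 3 of Cxcl10 and 7 of Ccl19. So the highest Cxcl9 counts came from unlike barcodes, 1 rich in collagen transcripts and others with few of them.

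Cxcl10 had 2 UMIs in 2 UT barcodes and 20 UMIs in 9 IMQ barcodes, 1.31 against 8.48 CPM, a log2 ratio of 2.69 (0.65 to 5.83). The top IMQ barcode held 9 of the 20 UMIs, and without it the ratio was 1.83 (−0.37 to 5.04), so that 1 barcode decided the call. Within the limits the 9 UMIs of that barcode were the only ones in IMQ, and without it 2 UT UMIs stood against 0. The same barcode held 3 Cxcl9, 7 Ccl19, 3 Icam1, 3 Gbp2 and 6 H2-K1 UMIs, transcripts of adhesion, interferon response and antigen presentation. It held 11 fibroblast-list UMIs and 1 myeloid-list UMI out of 567. In IMQ all 73 Cxcl9 and all 20 Cxcl10 UMIs lay in barcodes with at least 3 UMIs from at least 2 fibroblast genes. That rule was met by 94.3% of all IMQ barcodes, so meeting it does not assign this barcode to a type.

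In IMQ 24 barcodes held Cxcl9 or Cxcl10 and 3 held both. UMIs of 8 interferon-gamma target genes (Irf1, Gbp2, Gbp3, Gbp4, Iigp1, Igtp, Irgm1, Psmb8) were found in 10 of the 24 (41.7%) and in 4.86% of the other IMQ barcodes, at 2029 against 159 CPM. A single carrier, the endothelial-marker barcode of 14973 UMIs, held 33 of these target UMIs, and the next held 8. The medians of depth were 452 and 355 UMIs. Ccl19 was present in 5 of the 24 (20.8%) and in 5.61% of the others. The genes most enriched in Cxcl9 carriers were Gbp2, an interferon-induced GTPase (log2 ratio of mean level 4.50, in 6 of 18 carriers), H2-Q7 (4.11), Ccl19 (4.07), Gm2564 (3.80) and AW112010 (3.56). These are descriptions of 18 barcodes, and 20 of the 24 carriers of either gene failed the quality limits.

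Over all genes of the interferon-gamma target list, the interval of the IMQ over UT ratio lay above 0 for 4 of 8 (Gbp3, Iigp1, Igtp, Irgm1), beside 2.41% of all genes, below 0 for Irf1 and Psmb8, beside 58.6%, and across 0 for Gbp2 and Gbp4. The median log2 ratio of the list was 1.40, beside −1.04 over all genes. Its summed level was lower in IMQ, 255 CPM in UT and 181 in IMQ, with Psmb8 alone at 162 and 61.1. Iigp1, an immunity-related GTPase, had 10 UT and 42 IMQ UMIs, at 1.44 (0.42 to 2.60). Ifng itself had 13 UMIs in 1 UT barcode and 0 in IMQ, which allows a level of up to 1.56 CPM there by the exact Poisson bound. That bound is for cells sorted as CD45-negative and says nothing of Ifng in the skin.

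**Figure D2:**
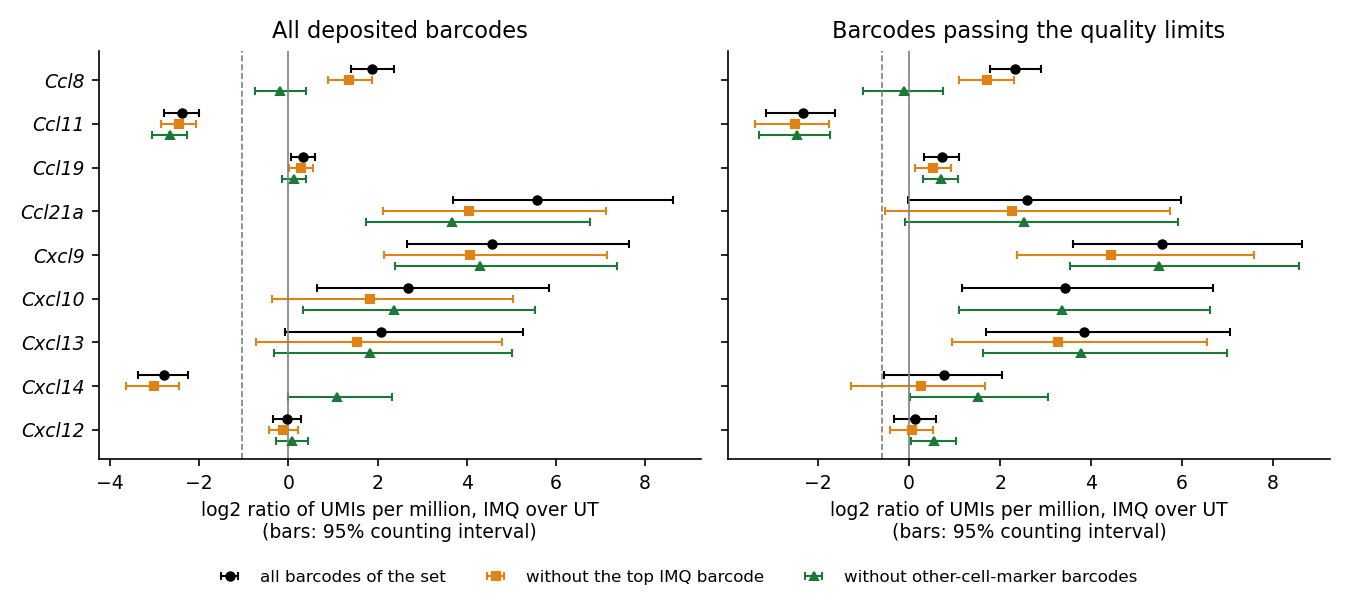
Log2 ratio of CPM, IMQ over UT, for each chemokine with 95% counting intervals, over all deposited barcodes (left) and within the quality limits (right). Black is every barcode of the set, orange leaves out the IMQ barcode with most UMIs of that gene, and green leaves out barcodes with markers of cell types other than fibroblasts; the dashed line is the median gene. Ccl8 moves from 1.87 to −0.18 in green on the left, and the orange point for Cxcl10 is missing on the right because no IMQ UMI was left.

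Ccl19 was the most widespread of the 9 in IMQ, and its direction could not be settled. It lies on chromosome 4 at chr4:42754525-42756577, minus strand, and had 186 UMIs in 153 UT barcodes and 361 UMIs in 287 IMQ barcodes. That is 122 against 153 CPM, a log2 ratio of 0.33 (0.07 to 0.59), and 0.72 (0.33 to 1.09) within the limits. Most carriers held 1 UMI: 130 of 153 in UT and 242 of 287 in IMQ. After each barcode within the limits was thinned to 400 UMIs, 5.25% of UT and 7.25% of IMQ barcodes carried it, with overlapping exact binomial intervals (3.93 to 6.84% and 5.21 to 9.78%).

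The transcript of Gm2564, at chr4:42629719-42631714 on the plus strand, aligned to that of Ccl19 over 707 bases with 98.9% identity and 8 mismatches. Counted from the 5′ end of the 745-base Ccl19 transcript, bases 216 to 693 were identical in both, and 3 substitutions (A694G, A717T and C732T, Ccl19 base first) lay in the last 52 bases. A read that falls wholly inside the identical 478 bases cannot be told to come from one gene or the other. Another substitution, T215C, lies in the start codon of Ccl19. The first 30 coding bases of Ccl19 (bases 214 to 243) and the same stretch of Gm2564, from the GENCODE transcripts, are shown for it, with the differing base in capitals.
Ccl19: aTggccccccgtgtgaccccactcctggcc
Gm2564: aCggccccccgtgtgaccccactcctggcc
RefSeq lists Gm2564 as a transcribed pseudogene, while GENCODE calls it protein coding. Shorter copies were not among the counted gene IDs: Ccl19-ps3 (100% identity over 324 bases), Gm12407 (99.4% over 324) and Ccl19-ps1 (99.1% over 325). Their part in the counts was not tested.

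Gm2564 had 401 UMIs in 257 UT barcodes and 200 UMIs in 179 IMQ barcodes, so it was lower in IMQ by a log2 ratio of −1.63 (−1.89 to −1.39). Of the UMIs given to either gene, 31.7% were given to Ccl19 in UT and 64.3% in IMQ (exact binomial intervals 27.9 to 35.6% and 60.2 to 68.3%). Summed, the 2 genes had 587 UMIs in UT and 561 in IMQ, 385 against 238 CPM. The log2 ratio of the sum was −0.70 (−0.86 to −0.53) over all deposited barcodes and −0.41 (−0.69 to −0.13) within the limits, the opposite direction to Ccl19 alone. With TMM scaling the sum was at 0.34 (0.17 to 0.51) over all barcodes and 0.08 (−0.20 to 0.35) within the limits. The libraries were counted with different Cell Ranger versions, 3.0.0 for UT and 3.1.0 for IMQ, and the part of that in the split between the genes was not tested. Both genes shared barcodes: 63.4% of Ccl19 carriers in UT held Gm2564 against 12.7% of other barcodes, and 20.6% against 2.52% in IMQ.

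**Figure D3:**
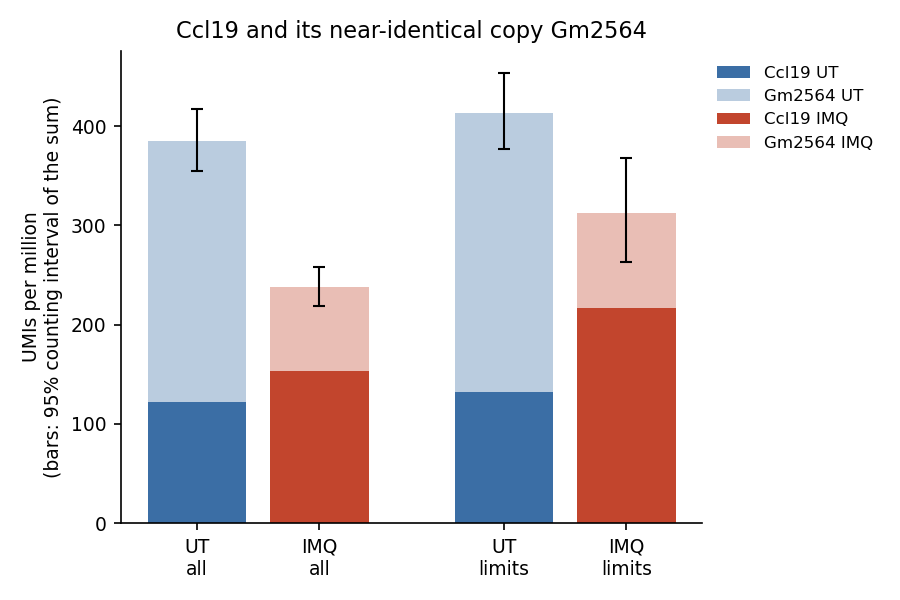
CPM of Ccl19 (dark) and Gm2564 (light) stacked for UT and IMQ, over all deposited barcodes (all) and within the quality limits (limits); error bars are exact Poisson 95% intervals of the sum. The dark part is taller in IMQ in both sets, while the whole bar is taller in UT (385 against 238 over all barcodes).

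The other CCR7 ligand, Ccl21a at chr4:42772860-42773993, lies 16282 bases from Ccl19 on the same strand. It had 2 UMIs in 2 UT barcodes and 147 UMIs in 31 IMQ barcodes, 1.31 against 62.3 CPM, a log2 ratio of 5.57 (3.69 to 8.63). Of the 147 UMIs 96 (65.3%) sat in 1 IMQ barcode, and 24 of the 31 carriers held 1 UMI. Lymphatic endothelium is the known source of this chemokine in skin, and the barcode with 96 held 4 Mmrn1 and 2 Lyve1 UMIs, both markers of lymphatic vessels, with 2 Col1a1 UMIs among 1209. Prox1 and Flt4 were at 0 in it. At 6.29% mitochondrial UMIs it fell just outside the limit of 5%. Within the limits Ccl21a came down to 2 UT and 5 IMQ UMIs, all in different barcodes, at a log2 ratio of 2.58 (−0.03 to 5.98), and a maximum of 10% brought it to 6.39 (4.50 to 9.45). Without that barcode the ratio over all barcodes was 4.04 (2.12 to 7.13). The next carriers, with 10 and 5 UMIs, held none of the lymphatic, vascular or myeloid markers listed, at depths of 292 and 264 UMIs. Including the barcode with 96, 2 barcodes with at least 3 UMIs from at least 2 lymphatic genes held 100 of the 147 UMIs (68.0%). Without barcodes with markers of other cell types, 2 UT and 47 IMQ UMIs were left, at 3.68 (1.75 to 6.77).

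Ccl21a also has near-identical copies: 99.3% identity to Gm21541 over 870 bases, 99.4% to Gm13304 over 837 bases, and 99.5% to Ccl21b and Gm10591 over 402 bases. Gm21541 had 3 UMIs in 2 IMQ barcodes and 0 in UT, and the others had 0 in both libraries. Adding Gm21541 gave a log2 ratio of 5.60 (3.72 to 8.66). Reads that match several copies equally may be lost in counting, so the level of Ccl21a is uncertain. No other of the 9 genes had a transcript of another gene at 90% identity or more over 150 bases.

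Ccl8, at chr11:82115185-82116799, had 44 UMIs in 27 UT barcodes and 249 UMIs in 62 IMQ barcodes. Its level was 28.9 against 106 CPM, a log2 ratio of 1.87 (1.40 to 2.37), and 2.33 (1.78 to 2.89) within the limits. The UT UMIs were spread, with at most 4 in a barcode. In IMQ the top barcodes held 73, 31 and 21 UMIs, 50.2% of the total. The first held 17 H2-Aa, 16 Cd74 and 7 C1qa UMIs, the second 4 each of Pf4, Lyz2, F13a1 and Cd209b, and the third 4 Pf4 and 3 Lyz2, all known macrophage or antigen-presenting cell transcripts. Beside them stood 9, 1 and 6 fibroblast-list UMIs, out of 773, 557 and 449 UMIs in these barcodes.

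Over the library, 178 of the 249 IMQ UMIs (71.5%) lay in 11 of the 21 barcodes with myeloid markers. There Ccl8 stood at 17379 CPM, and at 30.2 CPM in the other IMQ barcodes, beside 28.9 over the UT library. Barcodes with at least 3 UMIs from at least 2 fibroblast genes held 197 of the 249 (79.1%). They made up 94.3% of IMQ barcodes, and some held myeloid markers too. No Ccl8 UMI was found in the 10 UT barcodes with myeloid markers, whose median depth of 805 UMIs was above the 363 of those in IMQ. Leaving out barcodes with markers of any listed cell type other than fibroblasts gave 44 UT and 71 IMQ UMIs, a log2 ratio of −0.18 (−0.75 to 0.39), and −0.11 (−1.02 to 0.73) within the limits. Lyz2, the macrophage lysozyme, was the gene most enriched in IMQ carriers, with a log2 ratio of 5.71. In UT no myeloid gene was found in any of the 27 carriers, and Podxl2 led the list at 2.22. The sort on CD45 should remove myeloid cells, and how these barcodes came through it was not tested.

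Ccl11 lies 52229 bases before Ccl8 on the same strand, at chr11:82057823-82062955, and went the other way. It had 251 UMIs in 156 UT barcodes and 74 UMIs in 67 IMQ barcodes, 165 against 31.4 CPM. The log2 ratio was −2.39 (−2.79 to −2.01), and −2.34 (−3.15 to −1.62) within the limits, where 206 UT UMIs stood against 17. This was below the median gene too, by −1.36 and −1.74. No barcode decided it, since the top one held 3.98% of the UMIs in UT and 4.05% in IMQ. Thinned to 400 UMIs, 5.97% of UT and 1.49% of IMQ barcodes within the limits carried it (exact intervals 4.56 to 7.65% and 0.64 to 2.91%). The interval lay below 0 in all alternatives tried in both barcode sets. Apod, which encodes apolipoprotein D, was the gene most enriched in carriers in both libraries, with log2 ratios of mean level of 1.41 in UT and 4.51 in IMQ. The share of barcodes with Apod was close in UT, 31.4% of carriers and 26.7% of others, and 37.3% and 10.5% in IMQ. A UT carrier of 818 UMIs held 78 of Apod.

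Cxcl13, at chr5:95956951-95961068, was rare. It had 2 UMIs in 1 UT barcode and 13 UMIs in 4 IMQ barcodes, a log2 ratio of 2.07 (−0.07 to 5.26) over all barcodes. Within the limits 12 UMIs were left in 3 IMQ barcodes, at 3.85 (1.68 to 7.05). These 3 barcodes held 4 UMIs each, with Dcn at 3, 15 and 4 UMIs and no UMI of the myeloid, endothelial or keratinocyte lists. Of its IMQ UMIs 92.3% passed the limits, while 19.5% of all IMQ UMIs did.

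Cxcl14, at chr13:56288643-56296551, had 157 UMIs in 11 UT barcodes and 35 UMIs in 23 IMQ barcodes, a log2 ratio of −2.80 (−3.37 to −2.26). A single UT barcode held 135 of the 157 (86.0%). It had 124192 UMIs and 7997 genes, over the gene maximum, with 1316 Krt15, 1132 Krt14 and 1003 Krt5 UMIs, the keratins of basal keratinocytes, and 136 UMIs of the epidermal chemokine Ccl27a. Without it the ratio was −0.08 (−0.89 to 0.76). Without all barcodes that carried markers of other cell types it was 1.08, from 9 UT and 35 IMQ UMIs, with an interval that just covered 0 and reached to 2.33. Within the limits 14 UT and 10 IMQ UMIs were left, at 0.78 (−0.56 to 2.05). In IMQ the carriers were enriched in Mfap5, a microfibril gene of fibroblasts (3.41), and in complement C3 (2.95).

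Cxcl12, at chr6:117168535-117181367, was about level between the libraries on total UMIs. It had 139 UMIs in 58 UT barcodes and 210 UMIs in 164 IMQ barcodes, 91.2 against 89.0 CPM, a log2 ratio of −0.03 (−0.35 to 0.29), and 0.13 (−0.34 to 0.59) within the limits. With TMM scaling it was 1.00 (0.68 to 1.32), equal to its distance from the median gene. A UT barcode with 17 Cldn5, 13 Vwf and 10 Egfl7 UMIs, endothelial transcripts, held 36 of the 139 UMIs. Without it the ratio was 0.39 (0.04 to 0.74). In IMQ the top barcode, with 24 Pecam1 and 15 Cdh5 UMIs, held 13 of 210. Carriers in UT were enriched in Lbp (3.07), Ace (2.40) and Sfrp1 (2.32), and Dpep1 was among the leading genes in both libraries (2.31 in UT, 1.30 in IMQ).

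**Figure D4:**
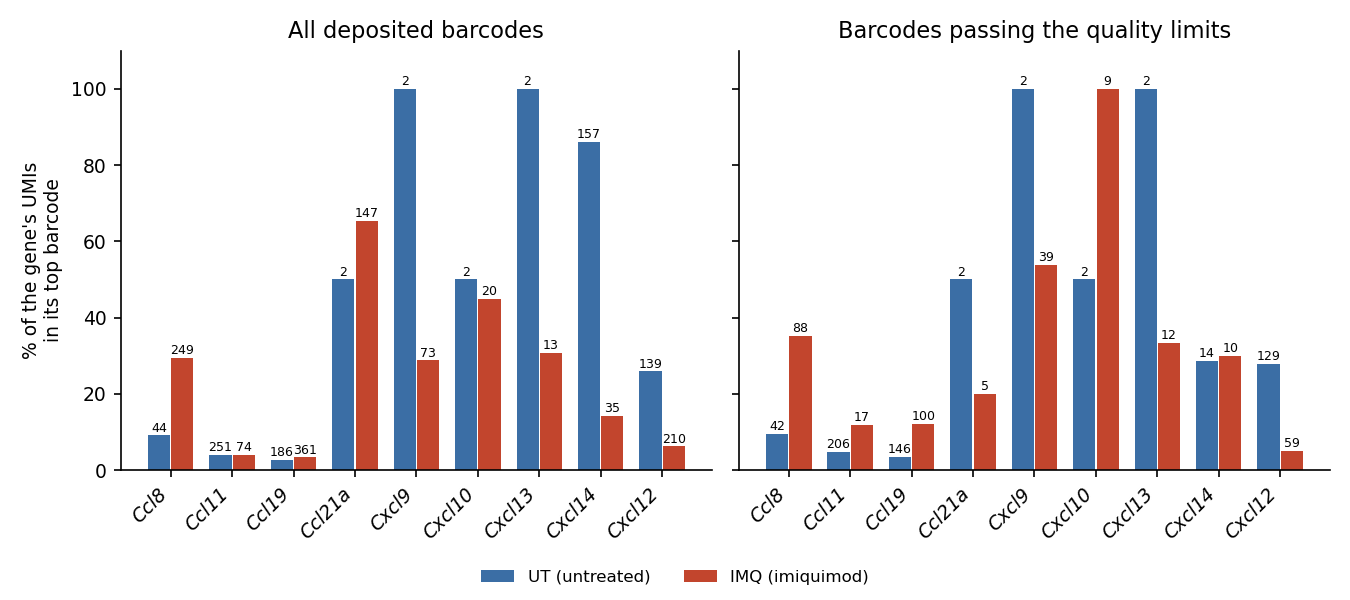
Share of each chemokine's UMIs held by its top barcode, in percent, for UT and IMQ over all deposited barcodes (left) and within the quality limits (right). Numbers above bars are the gene's UMIs in that library. Ccl11 and Ccl19 stay low, while Cxcl14 in UT (86.0%) and Ccl21a in IMQ (65.3%) rest on 1 barcode over all deposited barcodes.

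Signal held by 1 barcode was thus common among the 9. Of those with at least 10 UMIs in a library, the top barcode held at least 20% for 5 of 9 in IMQ and 2 of 5 in UT over all deposited barcodes, beside 14.7% and 21.4% of all genes. Within the limits it did so for 4 of 7 in IMQ and 2 of 5 in UT, beside 14.1% and 11.5%. A share of at least 50% was met by Ccl21a in IMQ and Cxcl14 in UT over all barcodes, beside 1.73% and 3.8% of genes. Within the limits it was met by Cxcl9 in IMQ (21 of 39 UMIs), beside 0.8% of genes, and by none of 5 in UT, beside 2%. The genes were listed with these shares known. At least 1 UMI of the 9 was present in 24.0% of UT and 12.0% of IMQ barcodes. At a fixed 200 UMIs per barcode the shares were 7.49% and 6.41%. Within the limits they were 26.5% and 24.3%, and 14.7% and 16.9% at a fixed 400 UMIs.

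Clusters were built from both libraries within the limits, with all chemokine ligands left out of the genes used. Of 6 clusters, 4 were fibroblast-like and 1 myeloid-like (Cd74, H2-Ab1, H2-Eb1, H2-Aa), and 1, led by Malat1, Krt77 and Krt10, stayed unnamed. Fibroblast-like clusters held 477 of 545 chemokine UMIs in UT (87.5%) and 210 of 339 in IMQ (61.9%). They took in 988 of 1045 UT and 553 of 571 IMQ barcodes, so these shares do not set fibroblasts apart as carriers. The IMQ share was 77.6% when the libraries were merged without integration, with 554 of the 571 IMQ barcodes in such clusters. The myeloid-like cluster had 25 UT barcodes, which held 1 UMI of the 9 genes, of Cxcl10. Its 10 IMQ barcodes held 69 of 88 Ccl8 UMIs, 24 of 39 Cxcl9 UMIs, 9 of 9 Cxcl10 UMIs and 20 of 100 Ccl19 UMIs. Of these only the place of Ccl8 was kept without integration, with 21.6% of its IMQ UMIs in fibroblast-like clusters either way. Merged, the fibroblast-like clusters held 39 of 39 Cxcl9, 9 of 9 Cxcl10 and 98 of 100 Ccl19 UMIs, and with no mitochondrial maximum they held 98.1% of Cxcl9 and 92.9% of Cxcl10. The 24 Cxcl9 UMIs were those of the barcodes with 21 and 3, which held 0 and 1 myeloid-list UMI, so the cluster's name does not describe these 2 barcodes. The unnamed cluster held 40 of 129 UT UMIs of Cxcl12, 36 of them in the endothelial barcode.

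**Figure D5:**
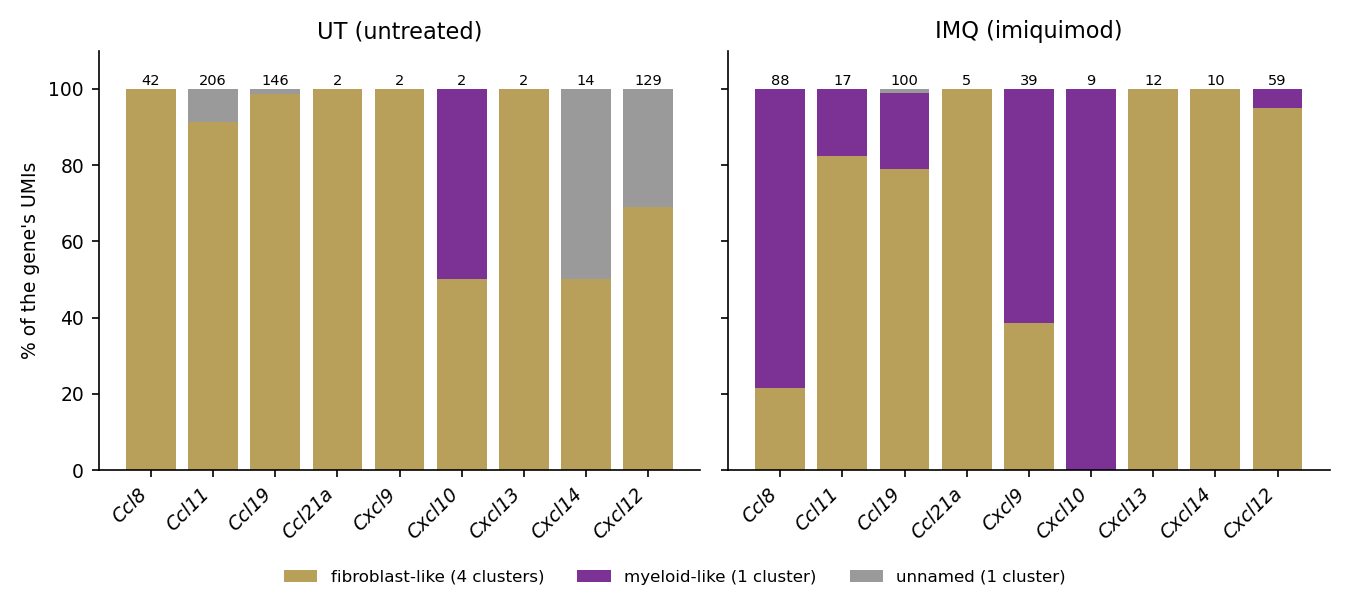
Share of each chemokine's UMIs, in percent, in fibroblast-like clusters, the myeloid-like cluster and the unnamed cluster, for UT (left) and IMQ (right) within the quality limits. Numbers above bars are UMIs. In IMQ the myeloid-like cluster of this integrated clustering holds most of Ccl8 (69 of 88) and Cxcl9 (24 of 39, but 0 when merged without integration). Fibroblast-like clusters hold 14 of 17 Ccl11, 79 of 100 Ccl19 and 56 of 59 Cxcl12 UMIs, beside 553 of 571 IMQ barcodes.

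Among fibroblast-like clusters Cxcl12 was uneven. Levels within these clusters rest on the integration: merged without it, UT and IMQ barcodes lay mostly apart, with 578 and 342 UT against 31 and 50 IMQ barcodes in the first pair of clusters and 26 and 27 against 264 and 209 in the next. The cluster led by Lbp, Pi16 and C7 had 265 CPM in UT (exact Poisson interval 210 to 331) and 262 in IMQ (175 to 376). The cluster led by Gm4841 and Klk1b24 had 8.88 in UT (1.83 to 25.9) and 123 in IMQ (76.0 to 188). The cluster led by Igfbp2 had 27.2 (10.9 to 56.1) and 47.0 (17.3 to 102). Ccl11 stood in IMQ against UT at 45.1 against 245, 23.4 against 249 and 39.2 against 124 CPM in these clusters, in the same order. Its intervals did not overlap in the first pair of clusters and overlapped slightly in the one led by Igfbp2 (12.7 to 91.4 against 85.1 to 176). Ccl19 alone was at 162 against 122, 240 against 186 and 157 against 175, with overlapping intervals in each, and carries the uncertainty of its copy there too.

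The same barcodes seldom held several of the chemokines. In UT 63 of 339 carriers (18.6%) held more than 1, and in IMQ 50 of 607 (8.24%), at lower depth. Ccl11 and Ccl19 shared most, in 36 UT barcodes, where 23.1% of Ccl11 carriers and 9.29% of other barcodes held Ccl19. Thinned to 200 UMIs the shares were 2.08% (1 of 48 carriers) and 2.27%, and within the limits, thinned to 400 UMIs, 10.3% (6 of 58 carriers) and 4.92%.

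Receptors that carry these signals on leukocytes were nearly missing. Both libraries were sorted as CD45-negative, so nothing is read from this about leukocytes in the skin. Ccr7, Ccr3 and Cxcr5 had 0 UMIs in both libraries, and 11 of 23 chemokine receptor genes had any. The 4 with at least 10 UMIs were atypical receptors, which bind chemokines without classical signalling. Ackr3, which binds CXCL12, had 60 UT and 13 IMQ UMIs, at −2.84 (−3.83 to −1.96) on the log2 scale. Ackr4, which takes up CCL19 and CCL21, had 76 and 26, at −2.18 (−2.88 to −1.52), with 40 of the UT UMIs in 1 barcode. Ackr2 had 14 and 5 (−2.12, −3.94 to −0.56), with 9 of the UT UMIs in 1 barcode and 1 UMI in each library within the limits. Ackr1 had 42 and 84 (0.37, −0.18 to 0.94). So 3 of the 4 intervals lay below 0, beside 58.6% of all genes. Their median of −2.15 lay below that of all genes.

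Of 30 other chemokine ligands in the files, 7 had at least 10 UMIs over both libraries, with 0 intervals above 0 and 2 below, beside 2.41% and 58.6% of all genes. Ccl27a had 169 UT and 24 IMQ UMIs, with 136 in the keratinocyte barcode above. Cxcl16 had 82 and 6, with 37 of the UT UMIs in 1 barcode. Cxcl1, a neutrophil attractant, had 13 and 32 UMIs, 23 of the latter in 1 IMQ barcode. Ccl5 had 4 and 16, 10 of them in the barcode with most Cxcl9. Pf4 had 14 and 33 UMIs, with all 14 in 1 UT barcode and 12 of the 33 in 1 IMQ barcode, and Ccl7 had 12 and 12.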

How the data were processed

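Dermal CD45-tdTomato+ cells were profiled by the authors with 10x Chromium 3′ v3 chemistry, and reads were counted with Cell Ranger (3.0.0 for UT, 3.1.0 for IMQ per the file headers) against mm10, per the labels. The deposited matrices hold raw UMI counts per gene and barcode, in 1 library per group. How those barcodes were called is not given in the sources used here. Counts were summed per library over all barcodes and over those within the study's limits (200 to 5000 genes, at most 5% mitochondrial UMIs), and scaled to CPM of the library total (1000000). Intervals are exact at 95% (Poisson for levels, Clopper-Pearson for shares, conditional binomial for ratios) and cover counting error only. They treat UMIs as independent, so they do not cover the clumping of a gene's UMIs in 1 barcode, as for Ccl21a in IMQ and Cxcl14 in UT.

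A gene of the interferon-gamma target list is not reported here and was left out of that list's counts. The chemokines, gene lists, marker lists and limits were chosen with earlier results of these data known. Named genes were the 9 chemokines, list genes with at least 10 UMIs in either library, and, for a chemokine with at least 10 carriers in a library, the 5 genes with the highest log2 ratio of mean CPM (20 added) in carriers over other barcodes, seen in at least 20% and at least 3 carriers. Genes named in single barcodes, gene copies and receptors at 0 were chosen after their values were seen. A marker barcode held at least 3 UMIs from at least 2 genes of a list. Clustering used Seurat 5.3.0 (2000 variable genes, 30 anchor dimensions, 20 components, resolution 0.5). A cluster took the name of another cell type where its list alone had at least 3 markers enriched (log2 of at least 2) and at least 3 seen in at least 20% of barcodes. It was fibroblast-like where no other list had 3 enriched and at least 3 fibroblast markers were seen in 20%, and otherwise unnamed. Doublets were left in, with Scrublet (scanpy 1.11.5) removal as an alternative. Other alternatives were TMM (edgeR 4.0.16), median-of-ratios and technical-gene-free scaling, other limits, thinning, and leaving out top or marker barcodes. No per-sample column was left unused (0). Transcripts and coordinates are from GENCODE M21 (30934 of 31053 IDs matched), promoters from RefSeq, GRCm38.p6.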

Additional observations from a re-analysis of the deposited data

How the results depend on the processing

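No paired analysis was possible because each group was 1 library. The count of chemokines above 0 was 5 in both barcode sets. Over all deposited barcodes it went to 3 without barcodes carrying markers of other cell types, and within the limits it went to 3 with a minimum of 500 genes, where fewer barcodes remain. Under the other alternatives it lay between 4 and 7. The direction turned for Ccl19 with Gm2564 added (−0.70 over all barcodes, −0.41 within the limits), Ccl8 without barcodes with markers of other cell types (−0.18 and −0.11), and Cxcl14 over all barcodes without them (1.08). Where the first interval covered 0, the sign also changed for Cxcl14 within the limits and for Cxcl12 over all barcodes, from −0.03. Cxcl14 went to −0.28 with a minimum of 500 genes and −0.02 with a mitochondrial maximum of 10%. Within the limits and without barcodes with markers of other cell types it rose to 1.52 (0.02 to 3.06), from 8 UT and 10 IMQ UMIs. That was the 1 setting of 12 there with its interval above 0. For Cxcl10 within the limits, no IMQ UMI was left without its top barcode or with a minimum of 500 genes, nor was one for Ccl21a with that minimum. Cxcl12 lay above 0 in 5 of 10 settings over all barcodes (up to 1.00) and in 6 of 12 within the limits (up to 0.62). Thinning brought the share of barcodes with any of the 9 to 7.49% in UT and 6.41% in IMQ over all barcodes, and to 14.7% and 16.9% within the limits. The IMQ share of chemokine UMIs in fibroblast-like clusters was 77.6% after merging without integration and 79.8% with no mitochondrial maximum. Such clusters held 554 of 571 IMQ barcodes in the first case. In the second they held 1394, beside 19 and 12 in the other clusters. The 79.8% counts all 110 Ccl21a UMIs of that setting, 96 of them from the barcode with Mmrn1 and Lyve1 UMIs. The name of its cluster does not describe that barcode. Adding the copies, leaving out 1 library's top barcode and leaving out marker barcodes were chosen after seeing the data. With 2 UT UMIs for Ccl21a, Cxcl9, Cxcl10 and Cxcl13, depth sets only wide bounds on their ratios. Single libraries allow no estimate of the spread between mice.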

Other observations

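Within the quality limits, where 4.11% of all genes lay above 0 and 28.1% below, genes around the chemokines that passed 10 UMIs were fewer. Of 6 other ligands Ccl5 (4 UT and 10 IMQ UMIs, log2 ratio 2.58) and Cxcl1 (4 and 24, 3.85) lay above 0, each with most IMQ UMIs in 1 barcode (10 and 23), and Cxcl16 (39 and 1, −4.02) lay below. Of 3 receptors Ackr3 (47 and 2, −3.29) and Ackr4 (24 and 1, −3.32) lay below 0 and Ackr1 covered it. Of 6 interferon-gamma targets Gbp2 (38 and 38, 1.26), Iigp1 (6 and 16, 2.68), Igtp and Irgm1 lay above 0 and Psmb8 (176 and 35, −1.07) below. Of Gbp2's 38 IMQ UMIs 13 sat in 1 barcode. Of 11 inducing cytokines 4 had any UMI over all deposited barcodes of these CD45-negative sorts, and 1 of them, Ifng, had at least 10.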
